A study of Mus musculus with 28 samples.

Results

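EHMT2 was depleted from mouse embryonic stem cells (mESCs) through a degron, and the domains of the histone mark H3K9me2 in the remaining mESCs were compared with those of control cells. All domains on chromosomes 1 to 19 were taken, 3870 of the 4329 domains deposited for DMSO and 6770 of the 7313 deposited for dTAG, in mm10 (GRCm38) coordinates. These 2 sets stem from 12 of the 28 libraries of the series, with 3 immunoprecipitation and 3 input libraries for each condition. The cells of both groups were KH2 mESCs (BL6/129 hybrid) with dTAG, HA tags and an mCherry reporter on both endogenous Ehmt2 alleles and with a MERVL-GFP reporter. They were grown for 72 h with the degrader dTAG-13 or with its solvent DMSO and then sorted for absence of GFP, so that cells with an active MERVL reporter, the 2-cell-like cells, were left out of both sets. The experiments used 1 clone, and the mESCs were grown on mouse embryonic fibroblast feeders. A gate against feeder cells is described for a flow cytometry analysis of such reporter lines, and whether the sort used one is not given in the sources used here. The retinoic acid receptor agonist TTNBP was given in 2 of the replicates per the labels, which do not say which, and the methods name no such restriction. Where the starts of marker genes lie cannot check the identity of the cells, since no transcript levels were used.

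H3K9me2 marks repressed chromatin in broad blocks that can span whole gene clusters or the bodies of long silent genes. EHMT2 and its partner EHMT1 form the complex that places most of it, while other H3K9 methyltransferases, such as SETDB1 and the SUV39H enzymes, act mainly at repeats and in constitutive heterochromatin. In mESCs the complex is known for silencing germline and 2-cell stage genes and for a role at lineage genes.

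The authors called 1 set of domains for each condition, on a grid of 5 kb bins, and the sets hold no value per replicate. No test of DMSO against dTAG was therefore possible, and how far cultures vary could not be set beside the differences below. Intervals are 95% intervals over domains (Wilson for shares, exact order statistics for medians) and cover variation along the genome only. The depth behind the domains is unknown, and the position of a domain is not a level of the mark. The paper reports a lower global level of H3K9me2 in the sorted cells after EHMT2 depletion. A domain found in both sets can thus hold less of the mark in dTAG, and one found only in dTAG need not hold more.

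The sequences at gene starts differed with what happened to the domain. Each printed promoter runs from 250 bases before to 50 bases after a start (RefSeq, GRCm38.p6), written 5′ to 3′ along the gene with CG dinucleotides in capitals. Tnr and Adra1b start in 2 of the 8 widest lost domains, Fhit starts in the domain that was split most, Zscan4c lies in the widest intact domain, Ndufb3 lies in a wide new domain, and 5730507C01Rik is the first gene in the dTAG domain that joins the most DMSO domains.
Tnr: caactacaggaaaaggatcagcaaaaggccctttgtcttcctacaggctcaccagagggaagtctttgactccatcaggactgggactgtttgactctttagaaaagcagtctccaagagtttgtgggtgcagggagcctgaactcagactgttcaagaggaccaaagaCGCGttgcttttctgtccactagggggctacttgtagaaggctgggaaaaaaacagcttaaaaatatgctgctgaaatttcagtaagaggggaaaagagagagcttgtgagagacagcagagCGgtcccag
Adra1b: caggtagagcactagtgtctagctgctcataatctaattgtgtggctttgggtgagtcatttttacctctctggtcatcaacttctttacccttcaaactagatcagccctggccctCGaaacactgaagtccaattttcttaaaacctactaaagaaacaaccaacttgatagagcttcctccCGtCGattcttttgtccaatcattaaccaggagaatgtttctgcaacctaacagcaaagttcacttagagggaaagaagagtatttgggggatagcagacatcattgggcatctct
Fhit: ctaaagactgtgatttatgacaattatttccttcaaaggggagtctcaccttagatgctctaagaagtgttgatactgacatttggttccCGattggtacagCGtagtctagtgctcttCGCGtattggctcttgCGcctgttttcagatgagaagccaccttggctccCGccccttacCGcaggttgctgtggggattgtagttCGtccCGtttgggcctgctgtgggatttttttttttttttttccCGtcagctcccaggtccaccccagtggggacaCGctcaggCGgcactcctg
Zscan4c: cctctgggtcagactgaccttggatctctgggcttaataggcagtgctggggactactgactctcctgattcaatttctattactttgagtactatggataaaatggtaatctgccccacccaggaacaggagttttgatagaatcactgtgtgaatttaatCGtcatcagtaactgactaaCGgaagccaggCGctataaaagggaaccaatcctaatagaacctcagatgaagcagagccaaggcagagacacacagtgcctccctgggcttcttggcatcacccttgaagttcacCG
Ndufb3: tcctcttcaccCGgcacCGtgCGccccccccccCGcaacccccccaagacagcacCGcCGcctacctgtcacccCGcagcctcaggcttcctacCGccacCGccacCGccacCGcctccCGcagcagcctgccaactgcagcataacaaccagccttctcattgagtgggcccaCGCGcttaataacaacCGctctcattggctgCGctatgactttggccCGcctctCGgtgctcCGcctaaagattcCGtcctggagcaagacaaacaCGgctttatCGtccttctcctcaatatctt
5730507C01Rik: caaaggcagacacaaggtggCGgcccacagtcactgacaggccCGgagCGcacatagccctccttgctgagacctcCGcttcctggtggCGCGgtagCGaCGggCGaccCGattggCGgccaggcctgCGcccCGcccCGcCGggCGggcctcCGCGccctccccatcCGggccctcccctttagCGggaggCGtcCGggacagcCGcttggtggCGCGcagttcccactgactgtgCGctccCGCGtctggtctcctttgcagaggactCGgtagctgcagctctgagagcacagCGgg
The promoters of Tnr (chr1:159523519-159523818, plus strand) and Adra1b (chr11:43901188-43901487, minus strand), both in lost domains, held 3 CG each. That of Zscan4c (chr7:11005495-11005794, plus strand), in an intact domain, held 4, and that of Fhit (chr14:11161986-11162285, minus strand), whose start stayed inside a fragment of its split domain, held 12. The promoter of Ndufb3 (chr1:58586147-58586446, plus strand), which came to lie in a domain, held 22, and that of 5730507C01Rik (chr12:18514260-18514559, plus strand), in domains of both sets, held 30. Across the same 300-base window at all 20807 protein-coding starts, the median was 12 CG, and 54.5% of windows had 10 or more. The 3441 starts in domains of both sets had a median of 2 CG, with 10 or more in 11.0%. The 1012 starts that left domains had a median of 4, with 10 or more in 25.1%, and the 1296 that entered had a median of 13, with 10 or more in 58.6%. Starts outside both sets had a median of 16, with 10 or more in 66.1%. The starts that left were thus richer in CG than those that stayed, and those that entered were closer to the rest of the coding starts.

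To see what became of each domain of the control cells, the 3870 DMSO domains were sorted by the dTAG domains that share bases with them. A domain was called lost when it shared none, split when it shared bases with 2 or more, intact when a single dTAG domain covered at least 90% of it, and trimmed when a single one covered less. Splitting was the most frequent outcome and holds most of the length. There were 1322 split domains, 34.2% (32.7% to 35.7%) of all, with a median width of 400 kb (370 to 425 kb) and 64.5% of the DMSO domain bases. Trimmed domains numbered 1036, or 26.8% (25.4% to 28.2%), and intact domains 940, or 24.3% (23.0% to 25.7%). Lost domains numbered 572, the background share of 14.8% (13.7% to 15.9%), and held 52.8 Mb or 4.09% of the bases. The share of bases still in dTAG domains was 46.1% over the trimmed, 80.7% over the split and 99.1% over the intact domains. The lost share depends on the narrow domains of the dTAG set, and with domains of at least 50 kb in both sets it was 25.2% (23.7% to 26.7%).

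The outcome followed the width of the domain. Of 868 domains from 100 to 200 kb wide, 16.7% were lost and 53.5% of their bases stayed in domains. Of 472 domains from 400 to 800 kb, 1.27% were lost and 74.2% were split. None of the 416 domains of 800 kb or more was lost, and those of 1600 kb or more kept 94.6% of their bases. A wide domain has more bases with which to share 1 with dTAG, so the definition itself favours loss among narrow ones. By chromosome, the lost share lay between 8.97% on chromosome 8 and 25.3% on chromosome 19, and the share of bases kept between 63.3% on chromosome 19 and 84.5% on chromosome 5.

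**Figure D1:**
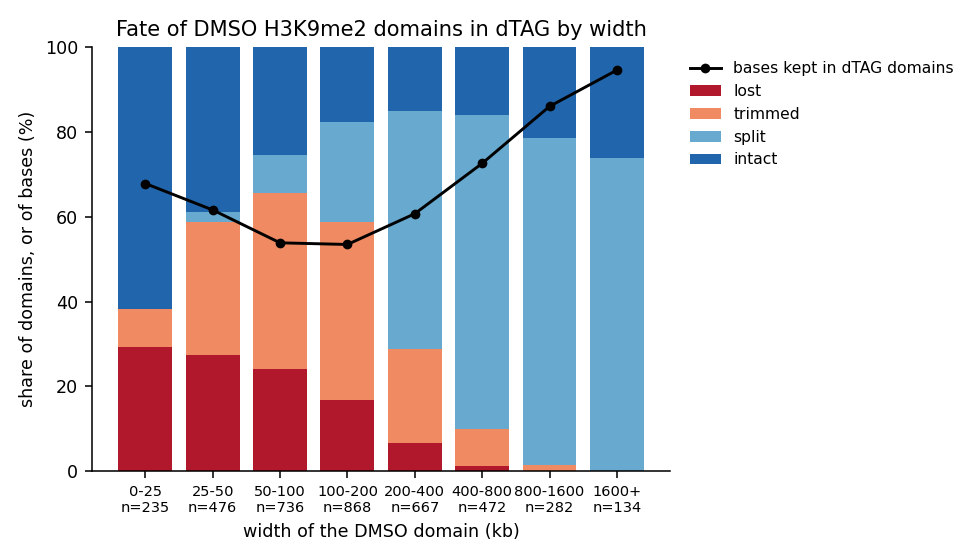
Stacked bars give the share of DMSO domains on chromosomes 1 to 19 (%) that were lost, trimmed, split or intact in dTAG, by width of the DMSO domain in kb with the number of domains under each bar, and the black line gives the share of their bases kept in dTAG domains. Lost domains make up 29.4% of the narrowest group and 0 of the groups from 800 kb, while splits reach 77.3% at 800 to 1600 kb.

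Among domains that shared bases with dTAG, more of the missing bases lay at the edges than inside. In trimmed domains all of them lie at the ends by definition, and in split domains 45.1% did. Of the bases missing from domains that shared some with dTAG, 152.9 Mb lay between an edge and the nearest dTAG domain and 88.3 Mb lay in gaps inside split domains. Of the 7740 domain edges, 13.1% stayed in the same bin, 37.2% moved inward, 34.9% were passed by a dTAG domain that ran further out, and 14.8% belonged to lost domains. The edges passed include those next to 794 stretches between neighbouring DMSO domains that a dTAG domain joined, with a median length of 5 kb. The inward shift had a median of 30 kb (30 to 35 kb), with quartiles of 10 and 70 kb. The 2600 gaps inside split domains had a median length of 10 kb, and 42.6% of them were a single bin. Of the trimmed domains, 605 had lost bases at 1 end and 431 at both, and 175 kept under 25% of their length. Of the split domains, 705 were spread over 2 dTAG domains and 161 over 5 or more.

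**Figure D2:**
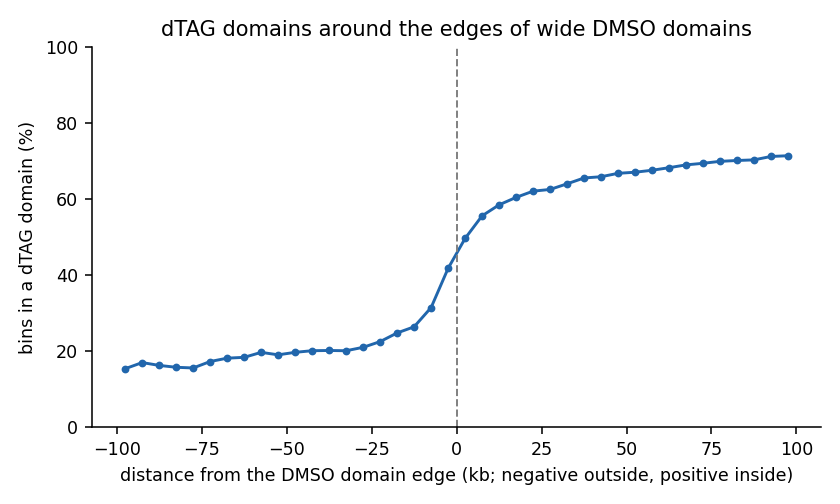
The line gives the share of 5 kb bins that lie in a dTAG domain (%) against distance from the edge of DMSO domains of at least 200 kb (kb, negative outside and positive inside, both ends pooled, bins outside counted only where they lie in no DMSO domain). It is 31.5% at 7.5 kb outside, 55.7% at 7.5 kb inside and 71.5% at 97.5 kb inside.

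The 8 widest lost domains measured 370 to 665 kb. The widest of all (chr9:28646586-29311584, 665 kb) covers parts of the bodies of Opcml and Ntm, which encode related cell adhesion proteins of the IgLON family. The next (chr12:53307058-53922056, 615 kb) lies in the body of Npas3, a transcription factor of the developing brain. Adra1b, an adrenergic receptor, starts in the third (chr11:43789776-44329774, 540 kb), and Tnr, a matrix glycoprotein of the nervous system, in the fourth (chr1:159394997-159899996, 505 kb). The fifth (chr10:9179989-9674988, 495 kb) reaches the body of Samd5, and the sixth (chr17:73306917-73706916, 400 kb) holds the start of Capn13, a calpain protease. No coding gene lies in the remaining 2 of the 8 widest, of 380 kb on chromosome 15 and 370 kb on chromosome 1. Between 16.8% and 25.3% of the bases of these 8 domains were soft-masked as repeats, against a median of 36.9% over all DMSO domains.

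Trimming could leave little of a domain. At chr1:125675042-126725040 (1050 kb), which holds the starts of the receptor gene Gpr39 and of Lypd1 and much of the body of Nckap5, 70 kb remained. At chr14:28561109-29436107 (875 kb), over Lrtm1 and the calcium channel subunit gene Cacna2d3, 60 kb remained. At chr14:6891138-7746136, 110 of 855 kb remained, and 15 of the 16 coding starts there, all with Gm symbols, were no longer in a domain. That stretch is 63.1% soft-masked, and reads with several matches were placed at random by the aligner, and the part of this in the result was not tested.

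The most fragmented domain (chr14:9646135-11181132, 1535 kb) lies over Fhit, a gene known as a common fragile site, and was spread over 15 dTAG domains that kept 66.4% of it. A domain of 4280 kb on chromosome 18 (chr18:25764583-30044576) with no coding start was spread over 14, and kept 80.3%. The domain around Cited2 (chr10:15419981-17724977, 2305 kb), a transcriptional coregulator, was spread over 11 and kept 81.6%. One without a coding start on chromosome 11 (chr11:24709802-25854799) was spread over 10 and kept 42.4%, and the domain of Lrrtm1, in the body of Ctnna2 (chr6:73521310-77636304), was spread over 9 and kept 93.9%.

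The widest intact domains held gene clusters or few genes. The widest (chr7:7204653-12479645, 5275 kb) holds 59 coding starts, among them Vmn2r pheromone receptor genes and the Zscan4 genes of the 2-cell stage, and all of it stayed in a single dTAG domain. A Vmn1r cluster with 73 coding starts (chr7:21099634-24084629, 2985 kb) was also covered in full. In between stood domains with little coding sequence, of 3950 kb with the start of the zinc transporter Slc39a10 (chr1:46875147-50825141), of 3360 kb with part of Cdh11 (chr8:99422877-102782872), and of 3085 kb with Izumo3, Gm12666 and Tusc1 (chr4:91404497-94489492), which kept 95.3%.

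**Figure D3:**
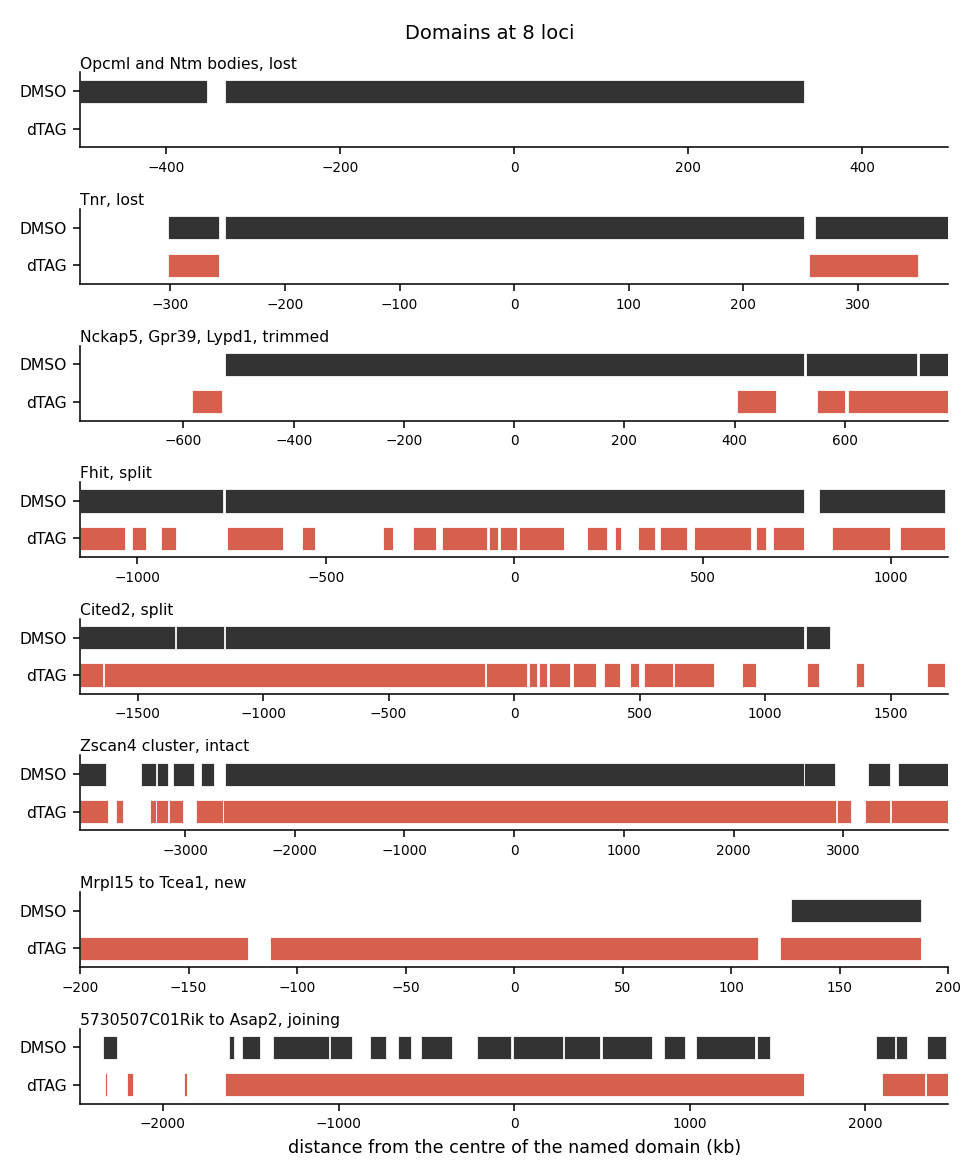
Bars show DMSO domains (black) and dTAG domains (red) at 8 loci against distance from the centre of the named domain (kb). The lost domain over Opcml and Ntm has no dTAG domain under its 665 kb, the Fhit domain is replaced by 15 pieces, the Zscan4 domain is covered throughout, and a single dTAG domain of 3295 kb runs over 14 DMSO domains on chromosome 12.

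Domains that stayed intact were richer in repeats than those lost. In DMSO domains of 100 to 200 kb, the median soft-masked share was 25.6% in lost, 32.1% in trimmed, 36.4% in split and 43.9% in intact domains, and the order was the same from 50 to 100 kb and from 200 to 400 kb. When the 868 domains of 100 to 200 kb were divided into quartiles of soft-masked share, 43.8% (37.3% to 50.4%) of the lowest quartile were lost and 1.38% (0.47% to 3.99%) of the highest. The share of their bases kept was 22.5% in the lowest and 83.9% in the highest. Domains of this width with a coding start were lost in 12.5% of cases (9.28% to 16.8%) and those without in 18.9% (15.9% to 22.4%).

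The same difference was seen base by base, inside and outside DMSO domains. Bases kept were 42.5% soft-masked and bases no longer in domains 26.4%, and the first was higher on 19 of 19 chromosomes. Outside DMSO domains, bases that came into dTAG domains were 38.0% soft-masked and bases in neither set 26.2%, again with the first higher on 19 of 19 chromosomes. Across deciles of soft-masked share, the share of DMSO bins kept went from 49.1% to 94.8%, and the share of other bins that came into domains from 3.92% to 44.7%. The direction was the same in each of 4 quartiles of GC content, and its size varied. Among bins of 27.0% to 38.6% GC, 78.4% of DMSO bins were kept in the lowest quartile of soft-masked share and 94.99% in the highest, and 15.6% and 32.7% of the other bins came into domains. Among bins of 41.4% to 44.9% GC, 40.4% of DMSO bins were kept in the lowest quartile of soft-masked share and 86.3% in the highest, and 6.05% and 20.0% of the other bins came into domains. Repeats are also where reads have several matches, and the part of their random placement in this result was not tested.

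**Figure D4:**
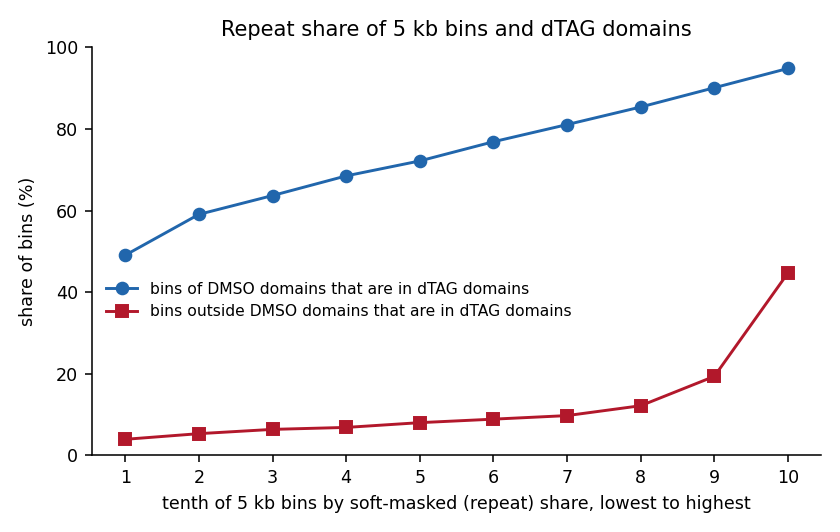
Points give, for 10 equal groups of 5 kb bins ordered by soft-masked (repeat) share, the percentage of bins inside DMSO domains (blue circles) and outside them (red squares) that lie in dTAG domains. Both lines are lowest in the first group, at 49.1% and 3.92%, and highest in the last, at 94.8% and 44.7%.

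To ask what the dTAG set adds, its 6770 domains were compared with those of DMSO. A domain was called new when it shared no base with a DMSO domain and retained otherwise. There were 1573 new domains, the background share of 23.2% (22.2% to 24.3%). They had a median width of 35 kb (35 to 35 kb), at most 225 kb, and covered 65.2 Mb. With domains of at least 50 kb in both sets, 582 were new, or 14.2% (13.1% to 15.3%). New domains were mostly isolated, with a median distance of 180 kb to the nearest DMSO domain and 1002 of them (63.7%) more than 100 kb away. Of all dTAG domains, 3595 (53.1%, 51.9% to 54.3%) lay inside 1 DMSO domain, 1027 ran over an edge, and 575 (8.49%, 7.85% to 9.18%) joined 2 or more DMSO domains. The joined stretches between DMSO domains were short, with a median of 5 kb over 794 stretches.

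New domains held more coding starts per Mb than the bases kept, and fewer than the bases of neither set. By definition they can lie only outside DMSO domains. They held 11.3 coding starts per Mb, extensions past an edge 15.2 and joined stretches 13.6, against 14.1 in bases of neither set and 3.46 in bases kept. Whole lost domains held 2.69 per Mb and the gaps inside split domains 3.34. The density of CG dinucleotides was 10.5 per kb in new domains, 11.3 in neither set, 5.92 in bases kept and 7.93 in whole lost domains.

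The widest new domain (chr1:4785203-5010202, 225 kb) holds the starts of Mrpl15, a mitochondrial ribosomal protein gene, of Lypla1, of Gm37988 and of the elongation factor gene Tcea1. One of 175 kb (chr1:58560132-58735130) holds Fam126b, the respiratory complex I subunit gene Ndufb3, Als2cr12 and Cflar, an inhibitor of caspase activation. Another of 175 kb (chr5:149641095-149816094) holds B3glct, a glycosyltransferase gene, and lies 1595 kb from the nearest DMSO domain. Others of the 8 widest hold Lyzl1 (chr18:4154612-4329610), part of Tmem132d (chr5:127866124-128036123), and Pcdhb22, Slc25a2, Taf7 and Pcdhga1 to Pcdhga3 (chr18:37514567-37679566). The last 2 touch the bodies of Nptx2 (160 kb) and Rab10 (145 kb).

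The dTAG domain that joined most (chr12:17792105-21087100, 3295 kb) runs over 14 DMSO domains, and 865 kb of it lay outside them. It holds 5730507C01Rik, Gm21863 and Asap2. A second on the same chromosome (chr12:22322099-24492095) joined 7, with 365 kb outside. Domains around Pcdh10 and Pabpc4l (chr3:43199454-49504445, 7 joined), Pcdh20 (chr14:87521031-89736027, 6 joined), and Gria4 and the caspase genes Casp1, Casp4 and Casp12 (chr9:3376620-6961614, 5 joined) had at most 65 kb outside DMSO domains. Large additions to a retained domain were also seen at Speer4 genes (chr5:14811274-15816272), where 820 of 1005 kb lay outside DMSO domains, but 39.3% of this stretch is N in the assembly. At the prolactin genes Prl2c2, Prl2c3 and Prl2c5 (chr13:12667930-13357928), 430 of 690 kb lay outside.

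Coding genes moved in both directions. Of 20807 protein-coding starts (GENCODE M21), 21.4% lay in DMSO domains and 22.8% in dTAG domains. Of the 4453 in DMSO domains, 1012 left, a background share of 22.7%, and of the 16354 outside, 1296 entered, a background share of 7.92%. All 142 starts of lost domains left by definition, as did 287 of 512 (56.1%, 51.7% to 60.3%) in trimmed, 559 of 2210 (25.3%, 23.5% to 27.2%) in split and 24 of 1589 (1.51%, 1.02% to 2.24%) in intact domains. Of the starts that entered, 740 (57.1%) lay in new domains and 556 (42.9%) in retained ones. Counting a gene as inside only when its start and 5 kb on either side were, and outside only when none of them was, gave 664 that left and 767 that entered. The direction turned with at least 50% of the body in place of the start, where 1097 left and 990 entered, and over the starts of all annotated genes, where 3923 left and 3084 entered. Among noncoding genes, 716 of 2029 lincRNA starts in DMSO domains left (35.3%), as did 207 of 449 antisense starts (46.1%) and 8.60% of 1430 unprocessed pseudogenes.

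Among starts in DMSO domains, the share that left was higher for long genes. It was 15.8% for genes under 10 kb, 24.0% from 10 to 50 kb, 31.6% from 50 to 100 kb and 45.5% from 100 to 300 kb, and 41.3% for genes of 300 kb or more. Of the 541 genes of 300 kb or more, 345 had a smaller share of their body in dTAG domains than in DMSO domains and 110 a larger one. In 86 of them the share was lower by at least 50 percentage points, and in 0 it was higher by as much. Their median body share was 72.0% in DMSO and 24.8% in dTAG.

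The 20 genes with the most body bases out of domains were ranked by kb, a measure that favours long genes. For Dlg2, a postsynaptic scaffold, 1914.7 kb of the body lay in DMSO domains and 770.0 kb in dTAG domains. Opcml went from 1029.6 to 145.0 kb, the reelin pathway adaptor Dab1 from 970.5 to 145.1 kb, and the kinase gene Prkg1 from 925.0 to 115.0 kb. Lsamp, another IgLON gene, went from 2135.0 to 1367.3 kb although its start entered a domain. The neurexin gene Nrxn3, whose product organises synapses, went from 1602.1 to 972.9 kb. Npas3 (615.0 kb) and Clstn2 (587.1 kb), a synaptic calsyntenin, had none of their body left in domains. Nckap5 dropped by 766.4 kb. Others of the 20 were Rbms3, Tenm2, Cacna2d3, Macrod2, Ntm, Nrg1, Fhit, Ptprt, Ptprm and Adamtsl1, of which Adamtsl1 dropped by 559.2 kb.

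Gains within gene bodies were smaller. The most, 366.8 kb, was at Gm42416, which like Gm37013 and Gm37388 spans the clustered protocadherin genes on chromosome 18, so that these are a single locus. Pcdha1 and Pcdha2 in the same cluster went from 130 kb each to 244.4 and 235.4 kb. Elsewhere Celf2, an RNA-binding protein gene, went from 566.6 to 751.6 kb, the adhesion gene Sdk1 from 285.0 to 449.5 kb, and Mpp7 from 50 to 211.6 kb. Rftn1 (123.7 kb), D10Wsu102e (118.6 kb), Dnajc1 (109.9 kb) and Mtus2 (105.0 kb) had no body base in DMSO domains. The others of the 20 were Gm20388, Gm42906, Tusc3, A830018L16Rik, Tmem135, Rgs20, Dock3 and Gphn.

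Gene classes were then placed on both sets, each read against the background of 22.7% left and 7.92% entered. The share that left was above the background among neuronal adhesion and guidance genes, neurotransmitter receptor subunit genes, and potassium and sodium channel genes. In all but the channels, so was the share that entered. Over all coding genes in DMSO domains, 45.5% left among those of 100 to 300 kb and 41.3% among those of 300 kb or more. The classes were not matched for length, and the part of gene length in their shares was not tested. In the list of 70 neuronal adhesion and guidance genes, 15 of the 38 starts in DMSO domains left (39.5%). Of the other 32, 12 entered (37.5%), against the background of 7.92%. The domain share of the summed bodies of the 70 genes was 89.0% in DMSO and 66.1% in dTAG. Opcml, Tenm2, Ntm, Nrxn3 and Nrg1 were among those that left, while Lsamp, Ctnna3, Pcdh9, Epha6 and Slit2 entered with less of their body in domains than before. Among 87 neurotransmitter receptor subunit genes, 9 of 22 left (40.9%) and 10 of 65 entered (15.4%), and the body share was 77.6% and 52.5%. The glutamate receptor gene Grin2b went from 445.3 kb to 0.0 kb and Gria1 from 318.9 to 10.5 kb. The starts of Grm5, Grm7 and Gria4 entered, while their bodies in domains went from 550.4 to 525.7 kb, from 916.0 to 901.6 kb and from 368.7 to 378.3 kb. Of 105 potassium and sodium channel genes, 15 of 21 left (71.4%), among them Kcnh5, Kcnh7, Kcnh8, Kcnmb2, Kcnab1 and Kcnn2, and 6 of 84 entered (7.14%). These 15 starts lay in 15 different DMSO domains.

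Chemosensory receptor clusters mostly stayed. Of 1010 olfactory receptor starts in DMSO domains, 83 left (8.22%), from 28 domains. Of the other 118, 36 entered (30.5%), in 22 dTAG domains, above the background of 7.92%. Vomeronasal type 1 receptors went from 190 to 206 of 208 in domains, with all 18 that lay outside entering through 6 dTAG domains, and 2, Vmn1r184 and Vmn1r188, leaving. Of 119 vomeronasal type 2 receptors, 118 and 116 were in domains. Of 43 taste and trace amine receptor starts in DMSO domains, 10 left (23.3%), near the background and from 3 domains, among them Taar5, Taar6, Taar7a and Taar7b from a single split domain of 170 kb.

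Zinc finger genes entered in number. Of 385 genes with a Zfp symbol, mostly C2H2 zinc finger factors in tandem clusters, 73 lay in DMSO domains and 156 in dTAG domains. Of the 312 outside DMSO domains, 86 entered (27.6%), in 55 dTAG domains, and 49 of the 86 lay in new ones. They fell mainly on chromosomes 7 (25), 13 (15), 17 (13) and 9 (10), which hold 92, 36, 46 and 19 Zfp genes. Among them were Zfp943, Zfp442, Zfp810, Zfp850, Zfp369 and Zfp729a, and the 3 that left were Zfp804a, Zfp474 and Zfp37. Clustered protocadherins, cell surface proteins that give neurons distinct identities, showed the same direction in 1 locus, with 12 and 29 of 57 starts in domains and 18 of 45 entering (40%). Of 42 imprinted genes, 10 of 34 entered (29.4%), among them Peg3 and Usp29 in a single dTAG domain of 125 kb, Ube3a, Plagl1, Sgce and Calcr, and Atp10a and Tfpi2 left.

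Some classes of active genes, which are almost absent from DMSO domains, had starts in dTAG domains. Of 78 mitochondrial ribosomal protein genes, 7 of 77 outside entered (9.09%), of 80 cytosolic ribosomal protein genes 6 of 78 (7.69%), and of 35 complex I subunit genes 3 (8.57%), all near the background. They included Mrpl17, Mrpl19 and Mrps28, Rpl15, Rpl24 and Rps20, and Ndufb3, Ndufb6 and Ndufa4. All 6 replication-dependent histone genes that entered, of 67, lie in 1 new domain of 50 kb and count as a single event. Of 49 proteasome genes, 1 left and 1 entered.

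Developmental regulators were mostly outside in both sets. None of 39 Hox starts lay in a domain of either set. Of 161 developmental transcription factor genes, 8 of the 159 outside entered (5.03%), below the background, among them Foxp2, Sox30, Foxn2, Neurod4 and Nkx2-6. The 2 in DMSO domains, Neurod1 and Neurod6, which act in neuronal differentiation, left. The domain share of the summed bodies of this class was 20.5% in DMSO and 9.2% in dTAG. In the body of Foxp2, 525.6 kb lay in DMSO domains and 115.6 kb in dTAG domains although its start entered. Among 26 genes of retinoic acid signalling, Rarb left, with 373 and 200 kb of its body in domains, Aldh1a1 stayed in a domain, and the other 24 starts were outside both sets.

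Genes of pluripotency and of the 2-cell stage changed little in position. Of 30 pluripotency and early exit genes, 27 starts, Pou5f1, Nanog, Sox2, Klf4 and Esrrb included, were outside both sets. Dppa2, Dppa4 and Zfp42 entered (10%), near the background. Dppa2 and Dppa4 are neighbours that came to lie in a single dTAG domain of 1715 kb. Zfp42 lay in a dTAG domain of 65 kb that took in 4.0 kb of its body. Of 43 genes of the 2-cell stage, 38 were in DMSO domains and 38 in dTAG domains, with Pramef8 leaving and Arg2 entering. Among 45 germline and meiosis genes, Asz1 left, 1 of 6 in DMSO domains (16.7%), and Sycp1 and Dazl entered, 2 of 39 outside (5.13%). These counts are too small to set the class apart from the background. Dazl lay in a new domain of 55 kb. The feeder markers were Col1a1, Col1a2, Col3a1, Thy1, Twist1 and Prrx1. The starts of Col3a1 and Col1a2 were in domains of both sets and the other 4 were outside both. Of the body of Prrx1, 59.9 of 68.6 kb lay in DMSO domains and 0.0 kb in dTAG domains. For Col1a2 these were 21.6 and 26.6 kb.

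The genes of H3K9 methylation itself were largely outside domains. The starts of Ehmt2 and Ehmt1 were outside both sets, while 7.1 kb of the body of Ehmt2 lay in a DMSO domain and 8.0 kb of the body of Ehmt1 in a dTAG domain. Of the 26 genes, Setdb1, Kdm4a and Zfp809 entered through new domains of 100, 15 and 140 kb, 3 of 23 outside (13.0%, background 7.92%). In dTAG domains lay 2.8 of the 33.7 kb of Setdb1, 0.6 of the 43.1 kb of Kdm4a and all 17.6 kb of Zfp809. Morc2a started in a lost domain of 20 kb, with 0.6 of its 41.3 kb in DMSO domains, and Atf7ip and Kdm4c stayed. The other 20 starts, among them Trim28, Wiz, Zfp462, Suv39h2, Uhrf1 and the HP1 genes Cbx1, Cbx3 and Cbx5, were outside both sets.

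Tandem families of differentiated tissues had similar counts in both sets, although starts moved both ways. In each, the share that left was under the background of 22.7%, from 1.92% to 17.2%. Of prolactin, Psg and Ceacam starts outside, 3 of 11 entered (27.3%), and of killer cell and C-type lectin receptors 3 of 10 (30%). It was 13.2% for cytochrome P450, 4.94% for keratin and 0 for the other 2 families without a share below, against 7.92%. The body share of the prolactin class was 87.2% in DMSO and 73.3% in dTAG. In domains were 61 and 62 of 99 cytochrome P450 genes, 52 and 51 of 56 major urinary protein and androgen-binding genes, 48 and 46 of 64 defensins, 46 and 47 of 56 killer cell and C-type lectin receptors, 45 and 47 of 56 prolactin, Psg and Ceacam genes, and 29 and 28 of 110 keratin genes. Serpins went from 43 to 41 of 60, with Serpine2 and a group of Serpina genes from 1 split domain of 250 kb leaving. In all, 7 of the 43 serpins left (16.3%) and 5 of 17 outside entered (29.4%). Glucuronosyl- and sulfotransferases went from 31 to 28 of 43, with 4 Ugt1a genes of a shared locus leaving.

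**Figure D5:**
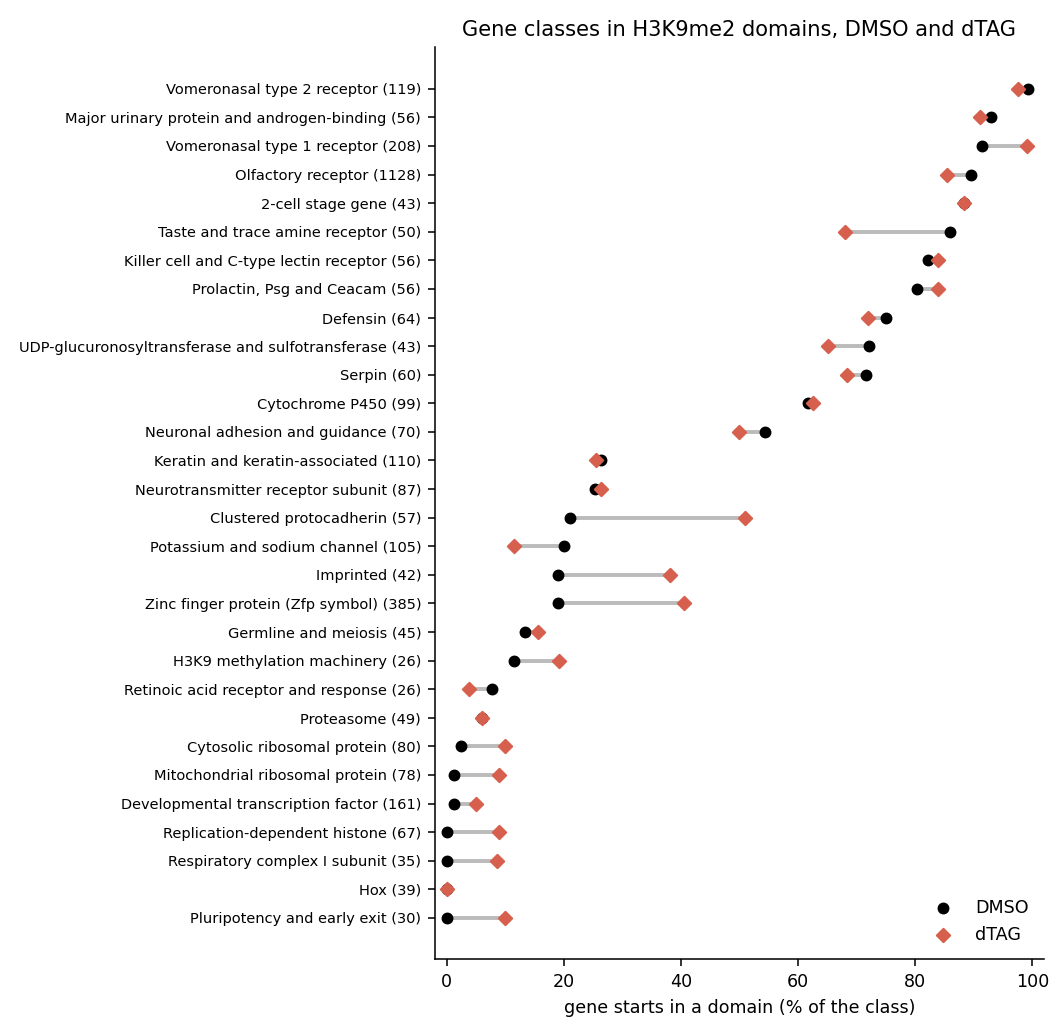
Points give the share of gene starts in DMSO domains (black circles) and dTAG domains (red diamonds) for 30 gene classes (% of the class, number of genes in brackets). Zinc finger genes (19.0% and 40.5%) and clustered protocadherins (21.1% and 50.9%) are higher in dTAG, and taste and trace amine receptors (86.0% and 68.0%) and potassium and sodium channels (20.0% and 11.4%) are lower.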

How the data were processed

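H3K9me2 was profiled in sorted mESCs, treated for 72 h with DMSO or dTAG-13, by ULI-NChIP (chromatin immunoprecipitation without crosslinking, from few cells). Per the labels and the study's methods, the authors trimmed reads, aligned them to mm10 with STAR 2.7.10, giving reads with several matches 1 random place, removed duplicates with Picard 2.26.0 and regions of artificially high signal, scaled coverage with deepTools 3.5.1 leaving out chromosomes X and M from the scaling, and took the log2 ratio of immunoprecipitation to input in bins. Bins with a ratio above an upper percentile limit seed a domain, which grows to the next bin under a lower limit. Whether the call merged replicates, and whether DMSO and dTAG shared these limits, is not given in the sources used here. The deposited files give the position of each domain, and their score is 0 throughout and was not used.

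Domains on chromosomes 1 to 19 were compared base by base with Python 3.11.15, numpy 2.4.6, pandas 2.3.3 and scipy 1.17.1, which was tested on simulated domains of known class. Genes came from GENCODE M21, and GC content, soft-masked share and CG dinucleotides from GRCm38.p6. Bins with N in 50% or more of their bases were left out of the summaries by bin. The RefSeq promoter table held 75.4% of the coding genes, so CG was counted in the genome at all GENCODE starts. Gene classes were defined by symbol. The 8 widest lost and new domains and 5 of each other kind, the 20 genes with the most body bases lost and gained, and the members of each class that moved, up to 6 each way, were named. Some genes that these rules pick are not reported here. The members, lists and rules were chosen with earlier results of these data known. Each set is 1 call per condition, so no test was run and no depth is known. Alternatives were the shared overlap, the coverage of an intact domain, a minimum width, joining of neighbours, N content, the definition of a gene in a domain, and leaving out each chromosome.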

Additional observations from a re-analysis of the deposited data

How the results depend on the processing

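Over 46 combinations of a count with an alternative, 36 stayed within 1.5 times the reported count. With gaps of at most 15 kb joined first, 319 domains were lost, 671 trimmed and 704 split, and 3322 dTAG domains were retained. The number of domains itself is lower there, and the shares were 13.5% lost, 28.4% trimmed and 29.8% split. With domains of at least 50 kb in both sets, 617 DMSO domains were intact and 582 dTAG domains new, and the lost share was 25.2% against 14.8%. Over all annotated genes, 3923 starts left and 3084 entered. With the start and 5 kb on either side, 664 coding genes left and 767 entered. With at least 50% of the body in place of the start, 1097 left and 990 entered, so that more genes left than entered, as over all annotated genes and unlike with the coding starts. An overlap of at least 10 kb, intact from 80% or with at most 5 kb uncovered, domains of at least 20 kb, gaps of 5 kb joined, and domains over 10% N left out moved no count beyond 1.5 times.

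Leaving out each chromosome in turn gave a lost share of 14.3% to 15.0%, a split share of 33.8% to 34.5% and a new share of 22.8% to 23.7%. Coding starts that left ranged from 919 to 987 and those that entered from 1182 to 1276. No paired analysis was possible because each set is 1 call for a whole condition and holds no value per replicate, and for the same reason no replicate could be left out. The depth of the libraries is unknown, so its limits on the edges of domains could not be given.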

Other observations

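The domains in which the most coding starts moved were looked up after the values had been seen. A DMSO domain on chromosome 14 (41091093 to 43756088, 2665 kb) was split and kept 27.9% of its bases, and 41 of its 56 coding starts left, most of them with Gm symbols but also those of Mat1a, Mbl1 and the surfactant protein genes Sftpa1 and Sftpd. From an olfactory receptor cluster on chromosome 7 (102529526 to 102749525, 220 kb), 13 of 16 starts left, among them those of Trim21 and Trim68. In a neighbouring domain (103789524 to 104184523, 395 kb), 11 of 28 left, among them the embryonic globin genes Hbb-y and Hbb-bh1. A domain of 205 kb on chromosome 14 (55966073 to 56171072) lost 7 of 9 starts, those of Ctsg, Gzme and the mast cell protease genes Mcpt1, Mcpt2, Mcpt4, Mcpt8 and Mcpt9.

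In the other direction, 13 starts came to lie in a new domain of 50 kb on chromosome 4 (88759500 to 88809499), that of the interferon gene Ifnz and 12 with Gm symbols. A retained domain on chromosome 7 (19864636 to 24114629, 4250 kb) took in 12 starts, 8 of them Vmn1r genes, with Ceacam19, Igsf23, Pvr and Zfp112. A new domain of 90 kb on chromosome 8 (104247871 to 104337870) took in 7, among them Cklf, Cmtm1, Cmtm2a, Cmtm2b and Tk2. On chromosome 13, a new domain of 50 kb (21452918 to 21502917) took in 6, among them the zinc finger genes Zkscan4 and Zscan26, and another of 50 kb (21797918 to 21847917) took in the 6 histone genes.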
